A study of Mus musculus and Homo sapiens with 42 samples.

Results

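K562 is an established human cell line from chronic myelogenous leukemia that carries the BCR-ABL kinase fusion and keeps features of early red cell and megakaryocyte precursors. CHD9 belongs to the CHD proteins, which use ATP to move nucleosomes along DNA and are recognised by paired chromodomains. The K562 experiment held 6 of the 42 libraries of the series. Each library came from cells that carried a doxycycline-inducible short hairpin RNA and were kept for 48 h in 1 ug/ml doxycycline. In 2 libraries the hairpin was CHD9 hairpin 1, in 2 libraries CHD9 hairpin 2, and in the remaining 2 libraries it targeted luciferase (shLuc), a gene these cells do not have. All groups therefore shared the vector and the drug. Each hairpin stood for 1 derived line and shLuc was the only control line, so the hairpin's target and differences between derived lines cannot be told apart. The labels call the replicates exp1 and exp2 and do not say that they were separate cultures, so p-values measure only the spread between these libraries, which may be technical.

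Both CHD9 hairpins were directed at coding exons of the CHD9 transcript. Their target sites are shown because they identify the reagents behind every comparison. The sites were read from the GENCODE 29 transcripts of GRCh38 by exact match, written 5′ to 3′ in the sense of the mRNA, and each of them occurred in CHD9 transcripts and in transcripts of no other gene.
CHD9 hairpin 1 target: tgcataccagcgtactaataa
CHD9 hairpin 2 target: ccgagctctcttagcatattg
The hairpin 1 site lies at chr16:53292912-53292932 on the plus strand of GRCh38, in exon 28 of the 38 exons of the CHD9 transcript used. The hairpin 2 site lies at chr16:53268005-53268025, also on the plus strand, in exon 21. All 21 bases of either site are in coding sequence, and 7 CHD9 transcripts hold each site.

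The values were raw counts of reads per gene, and the 6 libraries held between 8109941 and 9033846 counts. The count table listed 29828 genes, of which 9757 were among the 19951 protein-coding genes of GENCODE 29 (48.9%), and statements on gene groups cover the listed members alone. After the filter on low counts 9171 genes were tested, 6577 of them protein-coding. Levels are given as CPM, the counts scaled to a common library size, after TMM normalization, whose factors lay between 0.979 and 1.01. The erythroid markers HBE1 (1458 to 1796 CPM before scaling), HBG2 (117 to 192 CPM) and EPOR (46.2 to 58.0 CPM) were present in all 6 libraries. In SNB19, the glioblastoma line of the series, HBG1 and HBG2 had no counts, but EPOR stood at 16.5 to 22.2 CPM. GATA1, KLF1, TAL1, HBZ, ALAS2 and TFRC were not analysed here. The 2 shLuc libraries differed from each other more than the replicates of either CHD9 hairpin did, with a chi-square of 10.2 per gene against 1.38 and 2.24. No pair of replicates agreed within counting noise, and all were kept as separate samples.

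CHD9 mRNA fell with the hairpins, and no other measured CHD gene passed the test. CHD9 stood at 329 and 243 CPM in the shLuc libraries, 146 and 139 CPM with hairpin 1 and 150.4 and 152 CPM with hairpin 2. All 4 knockdown libraries lay below both controls and the groups did not overlap. The log2 fold change was -0.96 ± 0.12 (± standard error, as throughout), with an adjusted p of 5.99e-04 in the quasi-likelihood F-test of edgeR, where adjusted means by Benjamini-Hochberg over all tested genes. CHD1, CHD2 and CHD6 had log2 fold changes of 0.018, -0.075 and -0.15 (adjusted p of 0.925, 0.490 and 0.485). CHD5, a CHD gene best known from neurons, was barely measured, at 0.596 to 0.805 CPM in shLuc and 0.984 to 3.17 CPM in the knockdown, with an adjusted p of 0.0706. The other 4 CHD genes were not analysed here.

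With both hairpins as 1 group of 4 against the 2 shLuc libraries, genes that rose outnumbered genes that fell. At an adjusted p under 0.05 and a change of more than 1 on the log2 scale, 859 genes were higher (9.37% of those tested) and 321 were lower (3.5%). Of these, 522 and 180 were protein-coding. At the adjusted p alone, 1615 genes were higher (17.6%) and 1251 lower (13.6%), and the median log2 fold change over all tested genes was 0.0097. The 4 knockdown libraries lay wholly above the 2 controls for 2583 genes (28.2%) and wholly below for 2396 genes (26.1%). These counts were lower when either shLuc library was left out. Such a fit has 1 control, and its spread comes from the CHD9-hairpin libraries alone, differences between the hairpins included. Whether a call lost there reflects the values of the missing library or the smaller design was not tested. At the fold threshold 610 genes were higher and 172 lower without shLuc replicate 1, and 509 and 151 without shLuc replicate 2. At the adjusted p alone the counts were 906 and 588 without shLuc replicate 1, and 662 and 409 without shLuc replicate 2. In all that follows, "rose" and "fell" mean an adjusted p under 0.05 in this comparison with no fold threshold, and shares of lists are to be read against 17.6% and 13.6%. Counts and medians over a list are a description of the members that passed the filter on low counts. A gene near zero in one group passes it only through the group where it is high.

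The increases with the smallest p-values included genes of blood cell motility, granules and innate immunity. MS4A3, a membrane protein of granulocyte and monocyte progenitors, went from 11.4 and 9.9 CPM in shLuc to 342 and 355 CPM with hairpin 1 and 418 and 359.8 CPM with hairpin 2, a log2 fold change of 5.11 ± 0.15 (adjusted p = 8.92e-07). Every knockdown library exceeded both controls by a wide margin. SRGN, the core protein of granule proteoglycans, had 2 and 1 counts in the shLuc libraries and 34, 36.2, 42.8 and 36.7 CPM in the 4 knockdown libraries, a ratio of 213 (95% counting interval 72.9 to 1037), where the interval covers counting error only. Regulators of the actin skeleton in blood cells were also among them. NCKAP1L, a subunit of the blood cell WAVE complex, rose from 49.6 and 56.9 to 418, 414, 463 and 451 CPM. DOCK2, which activates Rac in migrating leukocytes, rose from 83 and 71.9 to 572, 602, 702 and 659 CPM. LCP1, the actin bundler of leukocytes, rose from 132 and 124 to 738, 744, 686 and 665 CPM. Their log2 fold changes of 3.04 ± 0.11, 3.03 ± 0.13 and 2.47 ± 0.094 each were many times their standard errors. No knockdown library overlapped a control, which the rule for naming genes by p required. CASP4, a caspase that senses bacterial lipopolysaccharide in the cytosol, rose by 4.29 ± 0.16 on the log2 scale, from 2.41 and 2.03 to 42.6 to 45.6 CPM.

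The other leading increases were of different kinds. TDO2 and KYNU, enzymes of tryptophan breakdown along the kynurenine route, were close to or at zero in shLuc. TDO2 stood at 1.15 and 1.55 CPM in shLuc and at 43.1, 43.5, 46.2 and 41.3 CPM in the knockdown (log2 fold change 5.00 ± 0.18). KYNU had no counts in either shLuc library and 11.6, 11.9, 15.1 and 11.4 CPM in the knockdown libraries, at least 35.6-fold higher against a floor of 3 counts per library. COL6A3, a chain of the matrix collagen VI, rose from 12.5 and 12.2 to 134, 143, 136 and 147 CPM. The remaining genes with the smallest p-values were the long noncoding RNA LINC00861 (2.62 to 5.63 CPM in shLuc and 277 to 364 CPM in the knockdown) and SOD1P3, a pseudogene of the superoxide dismutase SOD1 (1.31 to 1.38 and 59.5 to 74.1 CPM), whose reads cannot be separated with certainty from those of its parent. Among the largest fitted fold changes, whose order depends on the prior count, were genes without any count in shLuc. MAGEB16, a cancer-testis gene, was at least 43.5-fold higher, COL21A1 at least 20.9-fold, BCHE, the plasma cholinesterase, at least 20.4-fold, and PABPC4L at least 15.6-fold.

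Among the genes with the smallest p-values that fell were glycophorin genes, secreted factors and genes that the study itself singled out from these libraries. APLNR, the apelin receptor, stood at 84.6 and 89.6 CPM in shLuc, 16.9 and 16.8 CPM with hairpin 1 and 16.8 and 20.4 CPM with hairpin 2 (log2 fold change -2.29 ± 0.11, adjusted p = 6.45e-06). BIN1, which bends membranes and binds MYC, stood at 59.6 and 71.6, 5.7 and 5.97 and 4.92 and 5.14 CPM in the same order (-3.59 ± 0.14). For both APLNR and BIN1 the groups did not overlap and both hairpins gave nearly the same level. The study named these genes from the same libraries, so their counts here are not independent evidence. FN1, the matrix protein fibronectin, fell from 1224 and 894 to 81.6, 81.6, 109 and 113 CPM and IGF1, the growth factor, from 882 and 729 to 157, 165, 205 and 206 CPM. PTK7, a pseudokinase receptor of planar polarity signalling, fell from 277 and 275 to 97.1, 102, 92.5 and 97 CPM, and ARHGDIG, an inhibitor of small GTPases, from 22 and 27.8 to 4.42, 3.66, 4.58 and 3.83 CPM. OR13C8, an olfactory receptor gene, had 2.87 and 4.06 CPM in shLuc and no counts in the knockdown, at least 10.1-fold lower. DACT2, a regulator of Wnt signalling, went from 3.45 and 4.77 CPM to at most 0.349 CPM, and TCIM and SOX21 from 1.49 and 1.19 and 2.18 and 1.67 CPM to at most 0.122 and 0.328 CPM.

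**Figure D1:**
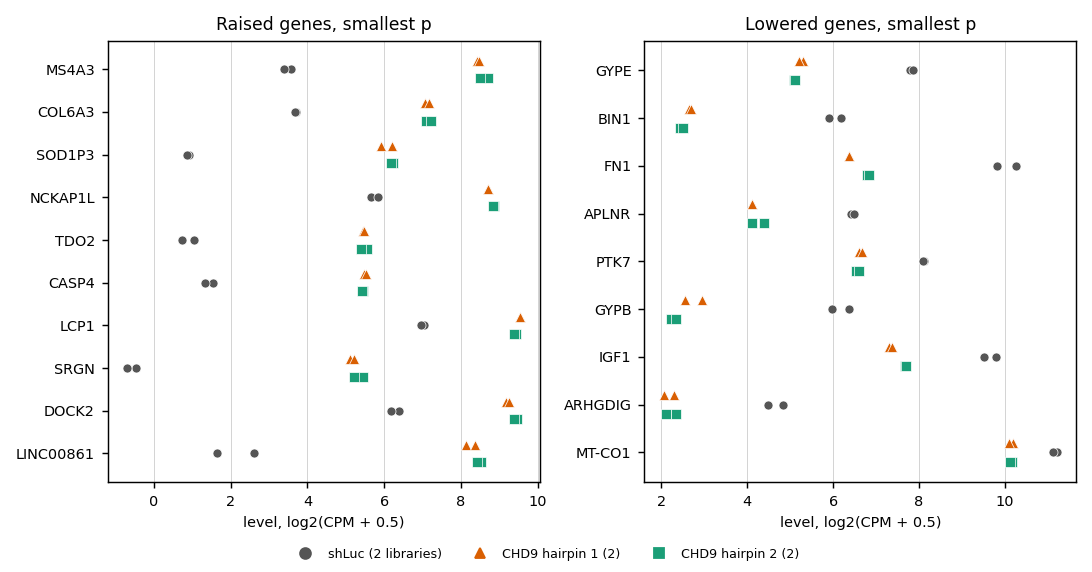
Levels of leading raised (left) and lowered (right) genes with the smallest p-values in the 6 K562 libraries, on a log2(CPM + 0.5) axis. Grey circles are the 2 shLuc libraries, orange triangles hairpin 1 and green squares hairpin 2. In every row all 4 hairpin libraries sit on one side of both controls, which was a condition for choosing these genes.

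In blood formation, red cell precursors switch on globins, heme enzymes and a membrane skeleton, while granulocyte, monocyte, mast cell and megakaryocyte precursors use their own granule proteins, receptors and integrins. K562 cells can be pushed towards the red cell or the megakaryocyte side, so these programmes were set side by side. Since whole cultures were sequenced, fewer cells of a type and less RNA per cell cannot be told apart.

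Genes of the red cell membrane fell more often than they rose. Of 17 tested genes of the red cell membrane and blood groups (32 in the list), 9 fell, 3 rose and 5 did not pass, with a median log2 fold change of -0.58 against 0.0097 for all genes. GYPE, a glycophorin gene, stood at 223 and 231 CPM in shLuc, 38.9 and 36.3 CPM with hairpin 1 and 33.7 and 33.9 CPM with hairpin 2 (-2.67 ± 0.092, adjusted p = 1.22e-06). GYPB, which carries the S antigen, stood at 62.8 and 82.4, 7.22 and 5.36 and 4.14 and 4.59 CPM in the same order (-3.77 ± 0.20). Both were well below the controls in all 4 libraries, but the glycophorin genes are near-identical copies, so how reads were split between them is uncertain. Smaller decreases, named here after their values were seen, were those of the skeleton gene TMOD1 (log2 fold change -0.95) and of GYPC (-0.58), which anchors the skeleton to the membrane and lost its call without shLuc replicate 2 (adjusted p = 0.0656). CD44, the Indian blood group antigen and an adhesion receptor of many cell types, moved the other way, from 62.6 and 62.3 CPM to 485 and 508 CPM with hairpin 1 and 232 and 240.0 CPM with hairpin 2 (2.55 ± 0.37).

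Of the 6 tested globin genes 2 fell and the others did not pass, and the list median was -0.53 (-0.27 without shLuc replicate 2). HBD, the delta chain of the minor adult hemoglobin, fell from 17.7 and 22.5 to 4.07, 3.9, 4.81 and 2.84 CPM (-2.36 ± 0.21, adjusted p = 1.00e-04). The fetal gene HBG2 stood at 177 and 196 CPM in shLuc and 118, 119, 126 and 164 CPM in the knockdown (-0.50 ± 0.14, adjusted p = 0.0263), with reads that HBG1 shares. HBG2 lost its call without shLuc replicate 1 or replicate 2 (adjusted p = 0.0908 and 0.187) and without hairpin 1 replicate 2 (adjusted p = 0.0511), so that HBD was then the only globin gene that fell. The embryonic HBE1 did not pass, at 1492 and 1818 CPM in shLuc and 1460.4 to 1801 CPM in the knockdown, with an adjusted p of 0.938. Among 14 tested genes of heme synthesis and iron, 5 fell and 1 rose (median -0.16, and -0.27 without shLuc replicate 1 and -0.069 without shLuc replicate 2). ABCB6, a porphyrin transporter, fell from 7.82 and 9.18 to 1.63, 2.68, 2.8 and 3.06 CPM, and ALAS1, the housekeeping form of the first heme enzyme, rose from 66.6 and 71.9 to 97.2, 101, 99.4 and 102 CPM. FECH, which inserts iron into heme and is named here after its values were seen, fell from 276 and 276 to 124, 133, 155 and 151 CPM (-0.97 ± 0.11).

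Transcription regulators of the red cell lineage did not move as a group. Of 12 tested regulators 3 rose and 2 fell, with a median of -0.00093 (-0.058 to 0.057 without each library in turn). These counts were unstable, since 1 rose and 2 fell without shLuc replicate 1 and 0 and 1 without shLuc replicate 2. STAT5B, which relays erythropoietin and BCR-ABL signals, fell from 1614 and 1551 to 798 and 789 CPM with hairpin 1 and 1074 and 1036 CPM with hairpin 2 (-0.78 ± 0.13). HEMGN, a nuclear protein of blood precursors, had a log2 fold change of -0.44 ± 0.089 and lost its call without shLuc replicate 2 (adjusted p = 0.0566). GFI1B, a repressor needed in red cell and megakaryocyte precursors, rose by 0.38 ± 0.088 on the log2 scale. The increase of GFI1B was lost without shLuc replicate 1 (adjusted p = 0.0729) and without shLuc replicate 2 (adjusted p = 0.0649). The erythropoietin receptor EPOR did not pass, with a log2 fold change of 0.11 and an adjusted p of 0.465.

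Granulocyte and monocyte genes that passed the test had higher levels after knockdown. Of 18 tested members of that list (88 in the list), 9 rose and 9 did not pass, and the median was 0.75. The count was not steady, since 3 rose and 0 fell without shLuc replicate 1, 5 and 0 without shLuc replicate 2 and 8 and 2 without hairpin 1 replicate 1. SIRPA, the inhibitory receptor for CD47, stood at 0.69 and 0.716 CPM in shLuc, 21.9 and 23.5 CPM with hairpin 1 and 16.3 and 16.1 CPM with hairpin 2 (4.76 ± 0.32, adjusted p = 2.06e-05). AIF1, a calcium-binding protein of macrophages, stood at 0.69 and 1.07, 8.38 and 9.27 and 7.49 and 6.78 CPM in the same order (3.16 ± 0.29). Neither gene overlapped between the groups, and both hairpins gave levels of the same order. SPI1 (PU.1), the master regulator of the myeloid lineage, was already expressed in shLuc at 58.1 and 56.8 CPM and stood at 72.2 and 75.1 CPM with hairpin 1 and 107 and 112 CPM with hairpin 2 (0.67 ± 0.19, adjusted p = 0.0292). SPI1 lost its call without shLuc replicate 1 or replicate 2 (adjusted p = 0.147 and 0.177). The neutrophil granule genes MPO and ELANE stayed at or below 0.123 CPM in every K562 library.

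Of 5 tested genes of mast cells, basophils and eosinophils (27 in the list), 3 with low levels in shLuc rose, 1 fell and 1 did not pass. The summed level of the list was 110.4 to 126 CPM in shLuc and 99.2 to 120.4 CPM in the knockdown. ALOX5, the first enzyme of leukotriene synthesis, stood at 3.22 and 1.91 CPM in shLuc and 13.5, 18.4, 25.4 and 24.6 CPM in the knockdown (2.99 ± 0.35). MS4A2, the beta chain of the high affinity IgE receptor, had 2 and 1 counts in the shLuc libraries and 2.1, 2.8, 4.03 and 3.72 CPM in the knockdown, a ratio of 18.1 (95% counting interval 6.04 to 89.2). PRG2, the eosinophil major basic protein, had 1 and 1 counts in them and 1.28, 1.58, 1.45 and 1.42 CPM in the knockdown, a ratio of 12.2 (95% counting interval 3.22 to 104). MITF, a regulator of mast cells and pigment cells, was the member that fell (-0.47 ± 0.091, adjusted p = 0.00570, and 0.0539 without shLuc replicate 1).

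Megakaryocyte genes rose in part. Of 12 tested members 6 rose and 1 fell, with a median of 0.88, while 2 rose and 1 fell without shLuc replicate 1 and 2 and 1 without shLuc replicate 2. ITGA2B (CD41), the platelet integrin alpha chain, stood at 13 and 19.3 CPM in shLuc, 56.1 and 61.2 CPM with hairpin 1 and 76 and 70.6 CPM with hairpin 2 (2.03 ± 0.20, adjusted p = 1.62e-04). Its partner ITGB3 (CD61) stood at 4.25 and 2.98, 29.8 and 26.5 and 11.9 and 9.62 CPM in the same order (2.41 ± 0.53, adjusted p = 0.0104). The increase of ITGB3 was larger with hairpin 1 than with hairpin 2 (adjusted p of the difference 7.13e-06) and lost its call without shLuc replicate 1 or replicate 2 (adjusted p = 0.0765 and 0.123). SERPINE2, a protease inhibitor stored in platelets, rose from 3.22 and 3.7 to 30.4, 29.3, 43.2 and 41.1 CPM. GP1BB, a subunit of the von Willebrand factor receptor, fell from 17.5 and 20.9 to 10.5, 11, 10.7 and 11 CPM, and the platelet chemokine PPBP stayed at or below 0.232 CPM throughout.

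Genes of lymphocytes and of stem and progenitor cells moved in both directions. The lymphoid list had a median of 0.85 (0.74 without shLuc replicate 1 and 0.92 without shLuc replicate 2). Of 13 tested lymphoid genes 5 rose and 2 fell, and 2 rose and 2 fell without shLuc replicate 1 and 3 and 1 without shLuc replicate 2. CD22, a B cell inhibitory receptor, fell from 13.2 and 14.7 to 3.03, 2.07, 5.26 and 5.36 CPM. CCR7, the lymph node homing receptor, stood at 0.805 and 1.31 CPM in shLuc, 13.4 and 13.8 CPM with hairpin 1 and 3.47 and 3.28 CPM with hairpin 2. CD22 lost its call without shLuc replicate 2 (adjusted p = 0.0515) and CCR7 without shLuc replicate 1 or 2 (adjusted p = 0.169 and 0.141). The lineage markers CD3E and PAX5 stayed at or below 0.338 and 1.36 CPM. In the stem and progenitor list 2 of 8 tested genes rose and 1 fell. Here 1 rose and 1 fell without shLuc replicate 1, 0 and 1 without shLuc replicate 2 and 1 and 1 without hairpin 2 replicate 2.

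**Figure D2:**
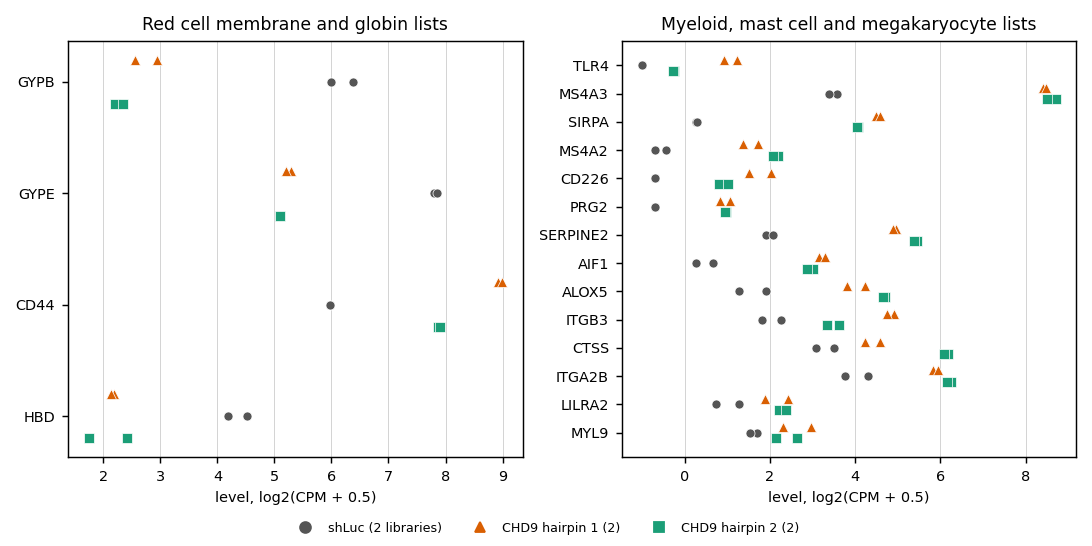
Levels in the 6 K562 libraries, on a log2(CPM + 0.5) axis, of members past both thresholds of the red cell membrane and globin lists (left) and of the granulocyte and monocyte, mast cell and megakaryocyte lists (right). CD44 is the raised member on the left, and every gene on the right is higher in the knockdown.

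Cytokines, chemokines and their receptors rose more often than they fell. Of 28 tested members (174 in the list) 15 rose, 2 fell and 11 did not pass, with a median of 0.83. Of the same list 9 rose and 1 fell without shLuc replicate 2. IL1RAP, the shared chain of the interleukin-1 and interleukin-33 receptors and a known surface antigen of leukemic stem cells in chronic myelogenous leukemia, had 3 and 2 counts in the shLuc libraries and 29.8, 32.9, 37.8 and 40.1 CPM in the knockdown, a ratio of 121 (95% counting interval 51.5 to 372). IL1R1, the ligand-binding chain of the interleukin-1 receptor, went the other way, from 85.6 and 67.5 to 23.2, 23.5, 18.9 and 19.6 CPM (-1.85 ± 0.14). Both the interleukin-18 gene and a receptor chain for it rose. IL18 went from 0.69 and 0.358 to 5.94, 7.19, 8.16 and 8.31 CPM and IL18R1 from 7.36 and 7.75 to 37.6, 40.7, 43.8 and 46.7 CPM. IL15, a growth factor of natural killer cells, rose from 0.345 and 0.477 to 9.66, 9.02, 7.27 and 5.47 CPM.

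Notch signalling genes rose in part. Of 12 tested members 5 rose and the others did not pass, and 5 rose and 1 fell without hairpin 2 replicate 1. In this pathway a receptor is cleaved on contact with a ligand, and its inner part joins RBPJ and a MAML coactivator to switch on HES and HEY repressors. The target HEY1 stood at 12.4 and 15.3 CPM in shLuc, 167 and 169.9 CPM with hairpin 1 and 73.7 and 73.9 CPM with hairpin 2 (3.13 ± 0.45, adjusted p = 0.00129). The target HEYL rose from 5.4 and 4.17 to 16.6, 18.3, 18.8 and 19.5 CPM and the coactivator MAML3 from 4.48 and 4.53 to 21.2, 20.4, 18.1 and 18.9 CPM. The receptor NOTCH2 stood at 9.66 and 8.83 CPM in shLuc and 29.6, 30.0, 19.7 and 19.5 CPM in the knockdown (1.41 ± 0.24), and lost its call without shLuc replicate 2 (adjusted p = 0.0549). The target HES1, the ligand JAG1 and RBPJ had log2 fold changes of 0.25, -0.15 and -0.27 and did not pass, and are named after their values were seen.

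Interferon-stimulated genes, which cells switch on against viruses, moved in both directions. Of 20 tested members 8 rose and 3 fell (median 0.39). IFITM2, which blocks viral entry, rose from 26.3 and 23.5 to 108, 107, 106 and 115 CPM. PARP9 and its partner DTX3L, which act together in interferon signalling and DNA repair, rose by 2.00 ± 0.25 and 1.40 ± 0.20 on the log2 scale. SAMD9, an antiviral protein, had 2 and 0 counts in shLuc and 8.38, 10.2, 4.81 and 6.23 CPM in the knockdown, a ratio of 62.7 (95% counting interval 17.2 to 520.3). CMPK2, a mitochondrial nucleotide kinase induced by interferon, fell from 48.6 and 49.9 to 25.3, 24.3, 19.1 and 20.1 CPM. Of this list 7 rose and 1 fell without shLuc replicate 1 and 7 and 1 without shLuc replicate 2.

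Genes of the STAT5 and ERK signals below BCR-ABL moved in both directions. Of 26 tested members 10 rose and 3 fell, and 3 rose and 3 fell without shLuc replicate 1, 1 and 3 without shLuc replicate 2 and 11 and 5 without hairpin 2 replicate 1. CISH, a feedback inhibitor induced by STAT5, fell from 468 and 448 to 307, 313, 314 and 323 CPM, as did STAT5B. PHLDA1, an immediate early gene, stood at 13 and 14.3 CPM in shLuc, 128 and 139.7 CPM with hairpin 1 and 47.7 and 51.4 CPM with hairpin 2. SPRY4, a feedback inhibitor of ERK signalling, stood at 77.4 and 69.7, 319 and 327 and 167 and 203 CPM in the same order. In PHLDA1 and SPRY4 hairpin 1 gave the higher level (adjusted p of the difference 2.96e-08 and 1.26e-05), and both lost the joint call without shLuc replicate 2 (adjusted p = 0.0741 and 0.0520), PHLDA1 also without shLuc replicate 1 (adjusted p = 0.0696). MYC stood at 601 and 522 CPM in shLuc and 861, 831, 689.8 and 715 CPM in the knockdown (0.46 ± 0.12, adjusted p = 0.0169, and 0.150 without shLuc replicate 2). Of 5 tested genes of the MYC, MAX and MXD network, MYC rose and 4 fell, among them the antagonist MXD4 (-0.63 ± 0.10), and 1 rose and 2 fell without shLuc replicate 1 and 0 and 1 without shLuc replicate 2. CDKN1A (p21), an inhibitor of the cell cycle kinases and a p53 target, rose from 45.4 and 47.5 CPM to 221 and 233 CPM with hairpin 1 and 140.2 and 146 CPM with hairpin 2 (1.99 ± 0.24, adjusted p = 5.04e-04).

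**Figure D3:**
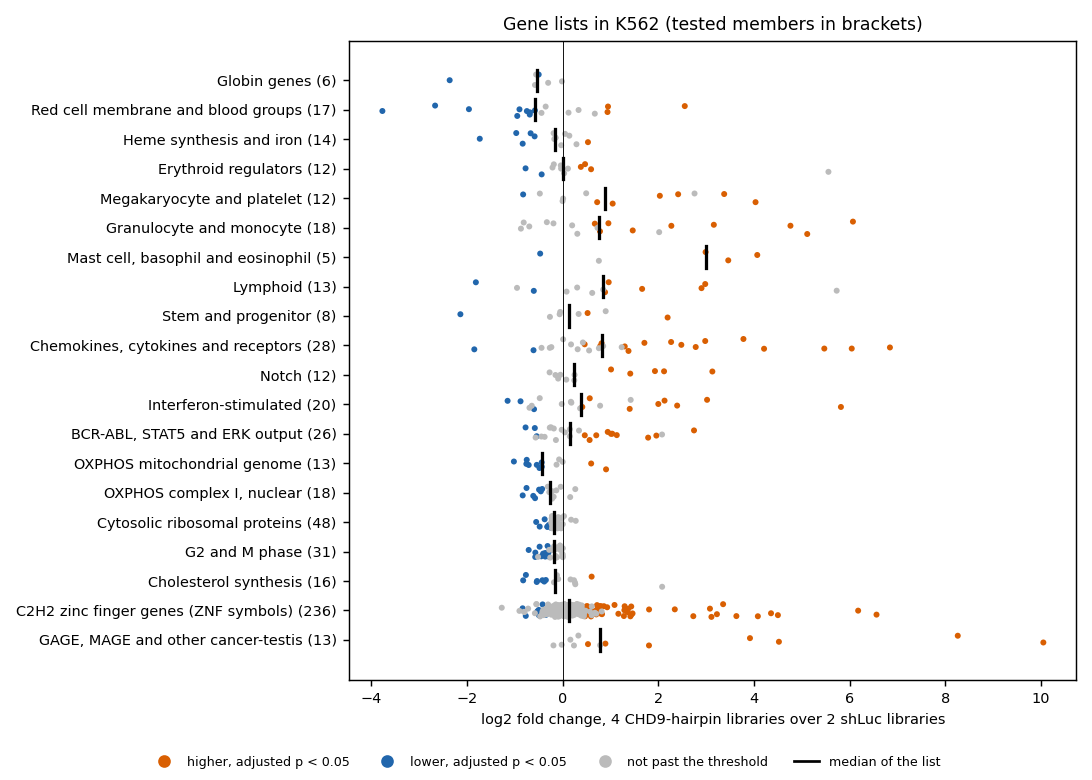
The log2 fold change of each tested member of 20 gene lists, 4 CHD9-hairpin libraries over 2 shLuc libraries, 1 point per gene. Orange and blue mark genes that rose and fell at an adjusted p under 0.05, grey points did not pass, and black bars are list medians. These lie above 0.7 in the myeloid, megakaryocyte, mast cell, lymphoid, cytokine and cancer-testis lists and at -0.58 in the red cell membrane list. They cover only members that passed the filter on low counts. A gene near zero in shLuc passes it only by being high in the knockdown, so the medians describe these members and not the whole lists.

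Oxidative phosphorylation, in which mitochondria pass electrons along complexes I to IV and make ATP at complex V, held small decreases whose number and size depended on the control library. Its genes lie partly in the nucleus and partly in the mitochondrial genome, which encodes 13 of the proteins. The study singled out this pathway from the same libraries, so the counts are not independent evidence. Of the 43 tested nuclear genes 11 fell and 32 did not pass, with a median of -0.22, and 36 had a log2 fold change below zero. The number that fell was 19 without shLuc replicate 1 and 2 without shLuc replicate 2, and the median was -0.37 and -0.085. Complex I held most of the calls, with 7 of 18 tested genes lower and a median of -0.27. Likewise 11 of these fell without shLuc replicate 1 (median -0.42) and 2 without shLuc replicate 2 (median -0.11). NDUFS7, a core subunit with an iron-sulfur cluster, fell from 55.9 and 61.8 to 30.8, 31.8, 38.2 and 38.4 CPM (-0.76 ± 0.13, adjusted p = 0.00285), and NDUFV2, which receives electrons from NADH, fell from 341 and 395 to 257, 264, 276 and 249 CPM (-0.49 ± 0.089). Both kept their calls without each library in turn.

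The mitochondrial genome did not move as 1 unit. Of its 13 genes 8 fell and 2 rose, with a median of -0.44. MT-CO1, the catalytic subunit of complex IV, fell from 2365 and 2211 CPM to 1166, 1090.0, 1148 and 1111 CPM (-1.02 ± 0.07, adjusted p = 2.34e-05). In contrast MT-ND6 stood at 596 and 556 CPM in shLuc and 1190.3, 1147, 948 and 1036 CPM in the knockdown (0.91 ± 0.11). MT-ND5 stood at 3394 and 3381 CPM in shLuc and 5689, 5399, 4595 and 4795 CPM in the knockdown (0.60 ± 0.10). For MT-CO1, MT-ND6 and MT-ND5 the groups did not overlap, and all 3 calls held without each library in turn. MT-ND6 is encoded on the opposite strand next to MT-ND5. Whether counting used strand is not given in the sources used here, so reads from the 2 strands there cannot be told apart. The mitochondrial share of all counts was 2.62% to 2.76% in shLuc, 2.73% to 2.81% with hairpin 1 and 2.35% to 2.42% with hairpin 2.

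**Figure D4:**
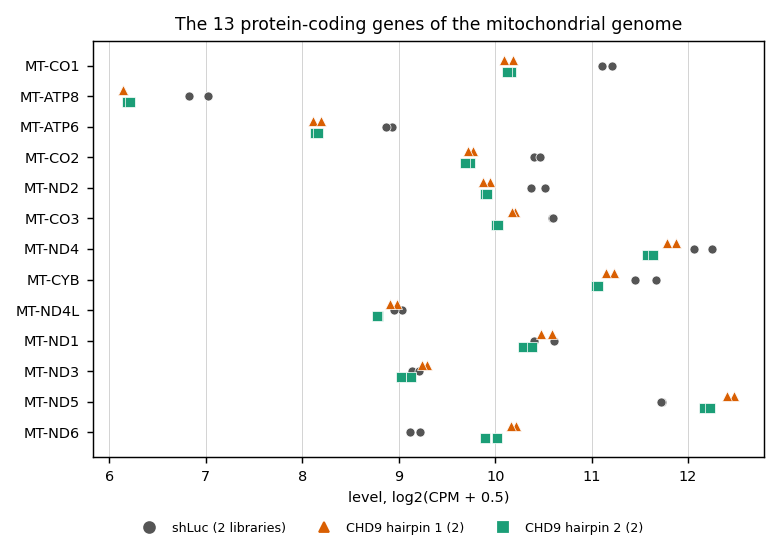
Levels of the 13 protein-coding genes of the mitochondrial genome in the 6 K562 libraries, on a log2(CPM + 0.5) axis, from the largest decrease at the top to the largest increase at the bottom. MT-ND5 and MT-ND6 are the rows in which the knockdown libraries lie to the right of both controls.

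Growth-related groups did not move together. Of 31 tested genes of the G2 and M phases, when cells prepare for and carry out division, 11 fell and 20 did not pass (median -0.19). DLGAP5, a spindle protein, went from 251 and 257 to 189, 191, 187 and 179 CPM (-0.45 ± 0.077). Of this list 0 rose and 3 fell without shLuc replicate 1 and 0 and 6 without shLuc replicate 2. Of 22 tested S phase genes 3 fell (13.6%, as over all genes), with a median of -0.027 (-0.073 to 0.017 without each library in turn), and 0 rose and 0 fell without shLuc replicate 2, 0 and 1 without hairpin 1 replicate 2 and 0 and 1 without hairpin 2 replicate 2. Of 12 tested histone genes expressed with replication 3 rose and the others did not pass, with a median of 0.47, and 1 rose and 0 fell without shLuc replicate 2. Of 29 tested genes of ribosome biogenesis and RNA polymerase I 6 rose, 2 fell and 24 had a log2 fold change above zero (median 0.21). UBTF, which opens ribosomal DNA to RNA polymerase I, stood at 281 and 291 CPM in shLuc and 461, 430.2, 349 and 359 CPM in the knockdown (0.48 ± 0.13), and its call was lost without either shLuc library (adjusted p = 0.124 and 0.116). Of the ribosome biogenesis list 0 rose and 1 fell without shLuc replicate 1, 0 and 0 without shLuc replicate 2, 4 and 1 without hairpin 1 replicate 1, 3 and 1 without hairpin 1 replicate 2 and 8 and 1 without hairpin 2 replicate 2. Among 48 tested cytosolic ribosomal protein genes 9 fell (median -0.17, and -0.27 without shLuc replicate 1 and -0.061 without shLuc replicate 2), with RPS6 at 1478 and 1834 CPM in shLuc and 1224, 1109, 1290.4 and 1124 CPM in the knockdown. The ribosomal protein count turned on single libraries, since 0 rose and 16 fell without shLuc replicate 1, 1 and 0 without shLuc replicate 2, 1 and 4 without hairpin 1 replicate 1, 1 and 4 without hairpin 1 replicate 2 and 0 and 5 without hairpin 2 replicate 2, and RPS6 lost its call without shLuc replicate 2 (adjusted p = 0.0953). In cholesterol synthesis 7 of 16 tested genes fell and 1 rose. MVD, an enzyme of the mevalonate route, went from 267 and 337 to 158, 163, 178 and 183 CPM, and SREBF2, the transcription factor that drives the pathway, from 937 and 841 to 653, 654, 666 and 679.8 CPM. Of the cholesterol list 0 rose and 5 fell without shLuc replicate 1, 0 and 2 without shLuc replicate 2, 0 and 6 without hairpin 1 replicate 1, 0 and 7 without hairpin 1 replicate 2, 2 and 7 without hairpin 2 replicate 1 and 2 and 6 without hairpin 2 replicate 2.

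Matrix and adhesion genes changed in both directions. Of 11 tested collagen genes 5 rose and 4 fell. COL6A3, COL21A1 and COL14A1 rose, the last from 6.44 and 4.89 to 22.7, 24.9, 26.6 and 26.6 CPM. COL15A1, a basement membrane collagen, fell from 1958 and 1782 CPM to 409 and 413 CPM with hairpin 1 and 778 and 775 CPM with hairpin 2 (-1.66 ± 0.26). In the matrix and mesenchymal list 7 of 17 tested genes fell and 4 rose. Its leading members were FN1, which fell, and RUNX2, a regulator of bone formation, which rose from a mean of 17.9 CPM to 59.9 to 66.1 CPM. Of 9 tested integrin genes 4 rose and 1, ITGAV, fell (-0.58 ± 0.10). ITGB4, a laminin receptor chain, rose from 55.1 and 52 to 162, 157, 149.8 and 157 CPM. Of the collagens 3 rose and 2 fell without shLuc replicate 1 and 3 and 1 without shLuc replicate 2, of the matrix genes 3 rose and 2 fell without shLuc replicate 1 and 3 and 2 without shLuc replicate 2, and of the integrins 2 rose and 1 fell without shLuc replicate 1.

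Neuronal genes likewise went both ways. Of 19 tested members 4 rose and 6 fell, with a median of 0.043 (-0.045 to 0.073 without each library in turn). PCLO, a scaffold of the presynaptic active zone, stood at 0.345 and 0.716 CPM in shLuc and 40.2, 45.4, 27.6 and 29.3 CPM in the knockdown (6.04 ± 0.40). MAPT, the microtubule protein tau, fell from 173 and 171 to 67.9, 70.2, 90.0 and 92.8 CPM. RELN, a secreted guidance protein that is also made by blood precursors, fell from 578 and 395 to 131 and 122 CPM with hairpin 1 and 57.7 and 53 CPM with hairpin 2 (-2.42 ± 0.35). Of this list 2 rose and 4 fell without shLuc replicate 1 and 2 and 4 without shLuc replicate 2.

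Many zinc finger genes lie in clusters that carry repressive chromatin marks, and cancer-testis genes are silent in most adult tissues. In both groups more genes rose than fell. Of 236 tested C2H2 zinc finger genes with a ZNF symbol 57 rose and 8 fell, with a median of 0.13 (0.20 without shLuc replicate 1). Of this list 39 rose and 2 fell without shLuc replicate 1, 25 and 3 without shLuc replicate 2 and 56 and 17 without hairpin 2 replicate 1. Chromosome 19, where the largest clusters of these genes lie, held 111 of the tested genes, of which 28 rose, against 29 of 125 on other chromosomes, and without shLuc replicate 2 the numbers that rose were 12 and 13. ZNF91, a repressor of SVA and LINE-1 mobile elements, rose from 0.805 and 0.596 to 11.1, 11.3, 13.5 and 12.5 CPM (4.08 ± 0.26). ZNF257 and ZNF90 rose by 3.63 ± 0.23 and 3.22 ± 0.26 on the log2 scale. The ZNF genes of these clusters are close copies, so the split of reads between neighbours is uncertain. ZNF521, a cofactor of blood and neural progenitors on chromosome 18, stood at 17.5 and 18.4 CPM in shLuc and rose by 2.34 ± 0.14 on the log2 scale. Of 13 tested cancer-testis genes 7 rose and the others did not pass, and 5 rose and 1 fell without shLuc replicate 1 and 4 and 0 without shLuc replicate 2. SSX3, on the X chromosome, had no counts in shLuc and 3.84, 3.78, 5.59 and 4.37 CPM in the knockdown, at least 12.5-fold higher, and is a close copy of other SSX genes.

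A set of genes went from near silence to clear expression. By a rule of at most 3 counts in each shLuc library and at least 1 CPM in all 4 knockdown libraries, 132 genes came on, 69 of them protein-coding, and by the mirror rule 8 went off. The rule uses the same libraries as the test, so these numbers are a description. Besides SRGN, IL1RAP, KYNU, MAGEB16 and SSX3, the set held TCN1, a vitamin B12 binding protein of granules in neutrophils (21.6, 26.8, 30.1 and 27.1 CPM in the knockdown, with 3 and 1 counts in shLuc), and ETS1, a transcription factor of lymphocytes and endothelium (2.91, 3.17, 2.01 and 2.51 CPM, with 2 and 0 counts in shLuc). TCN1 and ETS1 are named after their values were seen. The share of tested genes called higher at the fold threshold was 9.37% over all. By chromosome it was 16.8% on the X chromosome, 15.6% on chromosome 8, 15.4% on chromosome 4 and 14.7% on chromosome 21. The median log2 fold change was 0.18 on chromosome 21 (68 genes), 0.15 on X, -0.18 on chromosome 18 and -0.44 on the mitochondrial genome.

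The hairpins were then set side by side in a fit with 3 groups. Against shLuc, hairpin 1 gave 1092 higher genes (11.9%) and 641 lower (6.99%), and hairpin 2 gave 872 (9.51%) and 280 (3.05%), at the fold threshold. The comparisons share the shLuc libraries, so their likeness was not tested. The list medians for hairpins 1 and 2 were -0.49 and -0.52 for the red cell membrane, 0.68 and 0.91 for granulocytes and monocytes, 0.95 and 0.56 for megakaryocytes, 1.05 and 0.63 for cytokines and receptors, and -0.32 and -0.30 for complex I. Tested against each other, the hairpins differed in 369 genes (4.02%), 221 higher and 148 lower with hairpin 1. These numbers were 129 and 88 without hairpin 1 replicate 1, 133 and 126 without hairpin 1 replicate 2, and 160 and 97 without hairpin 2 replicate 1. CHD9 itself was not among them, with log2 fold changes of -1.01 and -0.92 and an adjusted p of the difference of 0.602.

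Some genes differed strongly between the hairpins, and the following were chosen after their values were seen. SP6, a transcription factor of skin and tooth, stood at 28.9 and 29.9 CPM in shLuc, 247 and 252 CPM with hairpin 1 and 44.6 and 46.8 CPM with hairpin 2 (adjusted p of the difference 4.28e-11). THBS1, the platelet matrix protein thrombospondin, stood at 4.25 and 4.41, 55.2 and 56.3 and 3.13 and 3.39 CPM in the same order (4.28e-11). MME (CD10), a peptidase of lymphoid progenitors, stood at 0.805 and 0.477, 42.5 and 39.5 and 5.7 and 5.69 CPM (2.56e-09). In SP6 and MME both hairpins were above the controls and hairpin 1 was far higher, and in THBS1 both hairpin 2 libraries were below both controls. CCNG1, a cyclin induced by p53, stood at 917 and 959 CPM in shLuc, 342 and 360.3 CPM with hairpin 1 and 979.6 and 879.7 CPM with hairpin 2 (6.10e-09). Differences in the other direction included CTSS, a lysosomal protease of antigen presenting cells, at 7.93 and 10.9 CPM in shLuc, 18.4 and 23.4 CPM with hairpin 1 and 71.4 and 67.8 CPM with hairpin 2 (1.64e-07), a gene whose joint call was lost without shLuc replicate 1 or 2 (adjusted p = 0.169 and 0.138).

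SNB19, with the same hairpins and timing, was the most alike experiment of the series. A fit of all 12 libraries tested whether the effect of the CHD9 hairpins differed between the lines, and it did so for 811 of 10671 genes (7.6%). In comparisons of the lines, larger and smaller go by the sign of the log2 fold change in K562 minus that in SNB19. A stronger fall in K562, as for BIN1, thus counts as smaller. By this sign the K562 effect was larger in 600 genes and smaller in 211. Without SNB19 shLuc replicate 2 it was larger in 448 and smaller in 136. The SNB19 hairpin 2 libraries differed from each other more than any other pair of replicates compared, with a chi-square of 22.4 per gene, and without either of them in turn the effect was larger in 553 or 658 genes and smaller in 205 or 221. CHD9 fell in both, with log2 fold changes of -0.96 in K562 and -1.29 in SNB19 and an adjusted p of the difference of 0.350. BIN1, lower in K562, had a log2 fold change of 0.37 in SNB19 (adjusted p of the difference 4.38e-08). MS4A3, TDO2 and CASP4, all higher in K562, had log2 fold changes of -1.88, -0.65 and 0.33 in SNB19 and did not pass there (adjusted p of the difference 1.25e-06, 1.47e-07 and 1.63e-08). FN1 had log2 fold changes of -3.46 in K562 and -0.42 in SNB19, a difference past the threshold (adjusted p = 1.37e-07). APLNR, GYPB and GYPE did not pass the filter on low counts in SNB19. The medians in SNB19 were 0.18 for complex I and 0.32 for ribosomal proteins, where K562 had -0.27 and -0.17. Without shLuc replicate 1 of K562 its medians were -0.42 and -0.27, and without shLuc replicate 2 they were -0.11 and -0.061. The difference between the lines was not tested for whole lists.

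**Figure D5:**
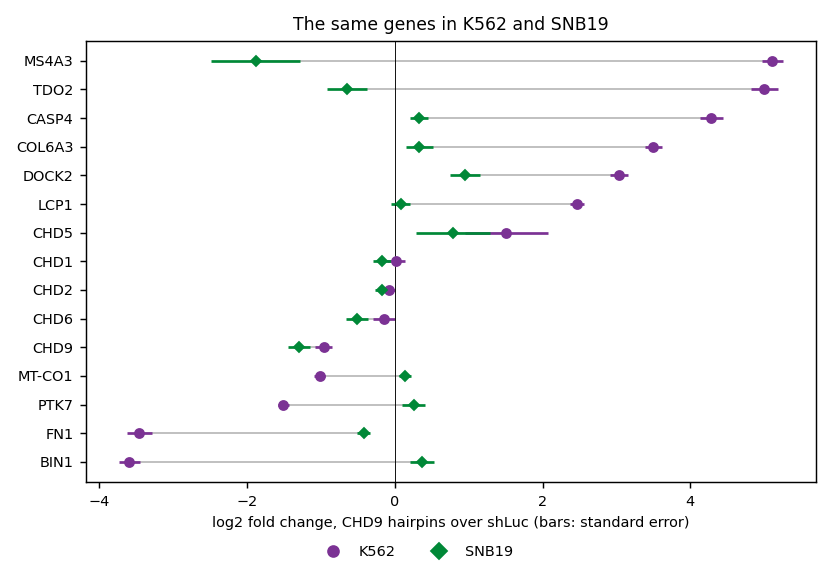
Log2 fold change of the CHD9 hairpins over shLuc in K562 (purple circles) and SNB19 (green diamonds), with standard errors as bars, for the CHD genes, genes named by the study and genes with the smallest p-values that were tested in both lines. CHD9 lies left of zero in both lines, while BIN1 and PTK7 lie left of zero in K562 and right of it in SNB19.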

How the data were processed

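RNA sequencing of K562 (6 libraries) and, for 1 comparison, SNB19 (6 libraries) was used. The deposited values are raw counts of reads per gene: the authors aligned reads with TopHat 2.1.0 and bowtie 1.1.0 to hg37 and counted them with HTSeq 0.5.3. Whether counting used strand, and why about 48.9% of protein-coding genes are listed, are not given in the sources used here. Names and chromosomes came from GENCODE 29, and 26967 of 29828 identifiers matched.

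Counts were tested with edgeR 4.0.16 in R 4.3.3: TMM scaling, filterByExpr, and the quasi-likelihood F-test with Benjamini-Hochberg adjustment over all tested genes. The knockdown (4 libraries) was compared with shLuc (2), the hairpins in a fit with 3 groups, and the lines by an interaction term over 12 libraries. Calls needed an adjusted p under 0.05, and for the fold threshold also a log2 fold change beyond 1. Totals of 8109941 to 9033846 counts per library set the precision, and counting intervals (exact, 95%) and the floor of 3 counts cover counting error only. The fits of the knockdown, of each hairpin against shLuc and of the interaction were tested on simulated data. DESeq2 1.42.0, other scalings and filters, a replicate block and leaving out each library were alternatives.

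Named genes were CHD9 and the CHD family, APLNR and BIN1, the marker genes, in each direction the 10 called genes lowest in p whose groups did not overlap, without clone-based names, the 5 with the largest fold in each direction at a mean of at least 1 CPM, and up to 4 members per list and direction. A few genes that these rules name are not reported here. The gene lists and the experiment were chosen with earlier results of these data known. Columns of the series' other cell types were not used here.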

Additional observations from a re-analysis of the deposited data

Results flagged for a closer look

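Among the 33 leading genes screened, 4 had 1 knockdown library apart from the other 3, by a gap rule. Chance alone meets this rule in about 5% of groups of 4 like samples. The 4 libraries here were 2 of each hairpin, and TCIM had hardly any counts, so that share need not hold for them. SOD1P3 stood at 59.5 CPM in hairpin 1 replicate 1, where the range of the 4 libraries was 59.5 to 74.1 CPM. APLNR stood at 20.4 CPM in hairpin 2 replicate 2 within a range of 16.8 to 20.4 CPM, and KYNU at 15.1 CPM in hairpin 2 replicate 1 within 11.4 to 15.1 CPM. TCIM stood at 0.122 CPM in hairpin 1 replicate 2, which is 1 count, with no counts in the other 3 libraries. All 4 genes stayed on the same side of both shLuc libraries in every knockdown library, but leading genes taken by p or by fold were chosen on that condition.

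Of the 20 leading genes tested in both K562 and SNB19, 15 had a knockdown effect that differed between the lines in the edgeR interaction test at an adjusted p under 0.05. The differences, as K562 minus SNB19 on the log2 scale, were 6.99 for MS4A3, 5.64 for TDO2, 3.95 for CASP4, 3.16 for COL6A3, 2.38 for LCP1 and 2.07 for DOCK2. Among genes that fell in K562 they were -3.98 for BIN1, -3.04 for FN1, -1.77 for PTK7 and -1.16 for MT-CO1. Genes at or near zero counts in a K562 group gave 10.37 for KYNU, 9.69 for BCHE, 9.66 for COL21A1, -4.26 for TCIM and -3.75 for SOX21, values that depend on the prior count and are no bounds. Leading genes were chosen for their change in K562, so the sizes of these differences describe them and are not evidence that the lines differ over all genes.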

How the results depend on the processing

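The counts of called genes depended most on which libraries were kept. Leaving out 1 library at a time gave 509 to 903 genes higher and 151 to 388 lower at the fold threshold, and 662 to 1701 higher and 409 to 1386 lower at the adjusted p alone, with the lowest values without shLuc replicate 2. For hairpin 1 against hairpin 2 it gave 129 to 275 higher and 88 to 185 lower, and for K562 against SNB19, with the SNB19 libraries added after seeing the data, 425 to 658 larger and 136 to 232 smaller. A fit with 3 groups, in which the knockdown is the mean of the hairpins, called 2622 genes higher and 2402 lower at the adjusted p alone. The DESeq2 Wald test called 112 genes higher and 68 lower between the hairpins. In the main fit differences between the hairpins count as spread, and in the fit with 3 groups they do not. The common coefficient of variation between libraries was 0.126 in the main fit and 0.0568 in the fit with 3 groups. The causes of the differences in counts were not tested. All other settings kept the counts within 1.5 times. For each hairpin against shLuc every setting did so, also without either shLuc library. The spread in those fits then came from the hairpin replicates alone. Replicate numbers did not pair the samples, with correlations of -0.024, 0.032 and 0.0030 between the replicate differences of the 3 groups. A fit with the replicate block called 783 genes higher and 283 lower, and 1298 and 921 at the adjusted p alone. Of 227 named genes 114 kept direction and call in each of the 14 alternatives that gave them a value (15 values were not given), 109 lost the call in at least 1, and none with a call changed sign. Over all scalings and filters the median log2 fold change of all genes moved to 0.082 at most. With 2 controls, decreases of low genes are limited by depth, and no alternative adds a control.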

Other observations

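Further gene groups in K562 moved in part. In TGF-beta and BMP signalling, in which paired receptor kinases phosphorylate SMAD proteins, 5 of 20 tested genes rose and 2 fell, and 4 rose and 0 fell without shLuc replicate 1 and 4 and 1 without shLuc replicate 2. The median of this list was -0.020, with 9 genes above zero and 11 below. SMAD4 and SKIL fell, with log2 fold changes of -0.37 to -0.29 and -0.49 to -0.31 over the alternatives. SMAD4 lost its call in 5 of the 14 alternatives and SKIL in 1. Among the members that rose, TGFBR2, the ligand-binding TGF-beta receptor, stood at 0.345 and 0.954 CPM in shLuc and 9.66, 12.3, 5.03 and 5.58 CPM in the knockdown. The ligand BMP6 stood at 0.69 and 0.954 and 8.96, 6.95, 5.14 and 4.26 CPM, and the receptor ACVRL1 at 0.575 and 0.835 and 4.66, 7.31, 4.14 and 3.94 CPM. ID2, a target of the pathway that blocks basic helix-loop-helix factors, rose from 33.9 and 31.2 to 80.9, 81.9, 62.5 and 60.4 CPM. In MHC class I presentation 4 of 11 tested genes rose, and 2 rose and 0 fell without shLuc replicate 2 and 4 and 1 without hairpin 2 replicate 2. MICB, a stress ligand of natural killer cells, rose from 22.1 and 21.2 to 44.1, 48, 50.2 and 46.1 CPM. For each of TGFBR2, BMP6, ACVRL1, ID2 and MICB the 4 knockdown libraries lay above both controls.

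Metabolic and chromatin genes changed in both directions. Of 17 tested PPAR targets and fatty acid oxidation genes 5 rose and 5 fell, and 3 rose and 1 fell without shLuc replicate 1, 1 and 0 without shLuc replicate 2, 3 and 4 without hairpin 1 replicate 1 and 3 and 4 without hairpin 1 replicate 2. PDK4, a kinase that inhibits pyruvate dehydrogenase, rose from 0.345 and 0.477 to 10.0, 10.6, 9.06 and 8.09 CPM (4.48 ± 0.30 on the log2 scale). Of 123 tested solute carriers 22 rose (17.9%, against 17.6% over all genes) and 19 fell (15.4%, against 13.6%), and 12 rose and 9 fell without shLuc replicate 1 and 7 and 7 without shLuc replicate 2. SLC22A5, the carnitine transporter, fell from 125 and 112 to 45.3, 53.5, 63.7 and 54.5 CPM, and SLC30A10, a manganese exporter, from 38.6 and 30.5 to 12.6, 12.7, 12.1 and 14.3 CPM. Among chromatin genes, L3MBTL1, a reader of methylated histones that is studied in red cell formation, fell from 114 and 101 to 33.3, 34.7, 52.9 and 49.3 CPM. JARID2, a partner of the PRC2 repressor complex, fell from 368 and 334 to 236, 231, 247 and 244 CPM (-0.55 ± 0.08 on the log2 scale). The groups did not overlap for PDK4, SLC22A5, SLC30A10, L3MBTL1 or JARID2.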
